A study of Mus musculus with 6 samples.

Results

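Schwann cell and nerve myelin genes were examined in whole skin of mice that lack the transcription factor JunB in their epidermis. The members were 8 genes named by symbol, Pmp22, Mbp, Prx, Sox10, Egfl8, Ngfr, Cnp and Ncam1, of 23951 genes in the expression table. All 8 averaged 0.1 FPKM or more and were among the 17021 genes tested. FPKM, the unit of every level below, is fragments per kilobase of transcript, scaled to the mapped fragments of a library.

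RNA sequencing of poly(A) RNA from skin was carried out for 3 mice labelled JunB dep, called JunBΔep here, and 3 mice labelled JunB +/+, called controls. All were C57Bl/6 mice of 6 to 7 months. In JunBΔep mice JunB is deleted by a Cre recombinase under the keratin 5 promoter, which acts in basal keratinocytes and other K5-expressing cells, so Schwann cells were not the cells targeted. Their skin was taken from lesions, so the deletion and the inflamed state of the tissue cannot be told apart. Mice are named by the replicate number of their labels, 0, 1 or 2.

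Schwann cells are glia of the peripheral nerves. Myelinating Schwann cells wrap 1 axon in layers of membrane, held together by proteins such as Pmp22 and Mbp, while non-myelinating Schwann cells ensheathe bundles of thin sensory and autonomic fibres and carry Ngfr and Ncam1. In skin they form the nerve bundles of the dermis and subcutis, and Sox10 is needed throughout their lineage. Skin also holds melanocytes, which share Sox10, and a muscle sheet, whose cells can carry Ncam1. In whole skin, fewer Schwann cells and less RNA per Schwann cell cannot be told apart.

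The gene labelled as deleted did not follow the labels in every library. Junb was at 59.3, 72.4 and 56.9 FPKM in the controls. The JunBΔep mice had 42.8 FPKM (replicate 1) and 28.0 FPKM (replicate 2), but the library labelled JunBΔep replicate 0 had 129.6 FPKM, more than any control. Whole skin holds many cells outside the deletion, and the last library goes against its label, so fold changes of the members and medians of several lists are also given without it. The same library stood farthest along the first principal component of all genes (113, against -53.3 to 28.4 in the other 5 mice). In it Krt14, a basal keratin of skin, was listed at 0 FPKM (837 to 1304 FPKM in the other mice), Krt15 was at 80.7 FPKM (control mean 1746) and Krt13, a keratin of mucosal epithelium, at 1990 FPKM (at most 0.367 in the other mice). These keratins were named after their values were seen, and the part of this difference in the members' levels was not tested. The FPKM values summed to 481078 to 630363 per mouse. The number of reads behind them is unknown. Nothing says whether the mice were processed separately from skin to library, so p-values measure only the spread between these samples.

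Sequences upstream of 4 members are shown for the results that follow, 3 of the 4 members that shared 1 order of the mice and Ngfr, which did not share it. RefSeq promoter sequences (GRCm38.p6) were at hand for 5 of the 8 members and each matched the mm9 genome exactly once. Each run is 5′ to 3′ on the gene's strand and ends where the annotated exon begins on mm9. Capitals mark the letters ACAAAG, a core of SOX factor sites. The run of Pmp22, from the first of its 4 listed starts, lies at chr11:62942234-62942483 (plus strand), that of Prx at chr7:28284093-28284342 (plus strand), that of Cnp at chr11:100436003-100436217 (plus strand) and that of Ngfr at chr11:95449050-95449262 (minus strand).
Pmp22: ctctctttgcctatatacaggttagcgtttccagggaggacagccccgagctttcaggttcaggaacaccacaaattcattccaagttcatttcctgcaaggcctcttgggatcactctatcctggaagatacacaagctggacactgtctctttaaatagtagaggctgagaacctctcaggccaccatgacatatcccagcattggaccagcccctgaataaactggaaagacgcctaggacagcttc
Prx: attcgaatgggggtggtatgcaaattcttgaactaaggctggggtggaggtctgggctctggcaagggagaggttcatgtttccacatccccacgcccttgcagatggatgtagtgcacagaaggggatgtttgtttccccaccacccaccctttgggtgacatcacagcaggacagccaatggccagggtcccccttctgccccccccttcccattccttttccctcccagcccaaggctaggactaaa
Cnp: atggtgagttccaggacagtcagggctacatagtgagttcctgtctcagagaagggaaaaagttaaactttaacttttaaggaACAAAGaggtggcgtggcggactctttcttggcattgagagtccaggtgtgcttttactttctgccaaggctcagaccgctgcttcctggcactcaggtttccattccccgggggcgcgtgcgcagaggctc
Ngfr: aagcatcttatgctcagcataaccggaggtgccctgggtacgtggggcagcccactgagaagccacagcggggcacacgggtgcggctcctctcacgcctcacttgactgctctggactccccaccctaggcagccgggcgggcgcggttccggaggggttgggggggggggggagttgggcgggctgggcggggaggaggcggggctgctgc

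A set of motifs was searched on both strands in the 250 bases before each listed start, 8 windows in all. ACAAAG was found before Cnp, 167 bases from the start on the gene's strand, and before Egfl8, 111 bases from the start on the other strand. It is held by 16.5% of the 32851 promoter windows of the table. No window of a member held ACAATG, another SOX core (10.7% of all windows), GTGGGCG, an EGR core (7.02%), TATAAA, the TATA box (12.4%), or TGANTCA, the site of AP-1 factors such as JunB (6.75%), which was added to the search after values had been seen. These letters describe the windows and were not tested as sites. GC content was 48.8% in the first window of Pmp22, 56.4% in Prx, 57.2% in Cnp and 70.4% in Ngfr, beside a median of 52.4% over all windows.

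The identity of the tissue was checked with other Schwann cell genes. Mag, an adhesion protein on the inner side of the myelin sheath, was at 0.924 to 1.94 FPKM in controls and S100b at 1.95 to 6.74 FPKM. Of genes of oligodendrocytes, the myelinating cells of the central nervous system, Mog was at no more than 0.0420 FPKM in any mouse. Olig2 and Opalin were listed at 0 FPKM in all 6, although a listed 0 need not mean a low level in this table, as for Krt14 above. Olig1 was at 0.0309 to 1.54 FPKM and Cldn11 at 0.155 to 0.927 FPKM, which overlaps the range of Mag. Of 10 such genes 4 were tested and 0 passed limma's test (0 at an unadjusted p of 0.05), and the highest was Aspa with 0.727 to 8.83 FPKM. The neurofilament gene Nefl, of neuronal cell bodies, was at no more than 0.0119 FPKM and Prph, a filament gene of peripheral neurons, at 0.0505 to 0.232 FPKM.

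In controls the mean level per transcript length ran from 84.2 ± 17.3 FPKM (SD, n = 3) for Pmp22 through Mbp (52.0 ± 20.5), Cnp (13.9 ± 2.84), Egfl8 (8.32 ± 3.70), Prx (7.00 ± 2.24), Ngfr (5.57 ± 1.35) and Sox10 (5.03 ± 1.46) to Ncam1 (1.12 ± 0.243). The control values of Pmp22 and Mbp overlapped, and so did those of Cnp and Egfl8, of Egfl8 and Prx, of Prx and Ngfr, and of Ngfr and Sox10. Mbp lay above Cnp and Sox10 above Ncam1 in all 3 controls with no overlap.

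The JunBΔep mice were not alike in these genes. Ngfr was low in all 3 of them, whereas the structural myelin genes were low in JunBΔep replicates 0 and 1 and within the control range in replicate 2. Of the 8 members, 0 passed limma's test at an adjusted p of 0.05, where 1.38% of all genes tested passed in the direction of lower expression and 0 genes in the other (243 at an unadjusted p of 0.05). Ngfr passed at an adjusted p of 0.1, as 1 of 8, beside 1.92% of all genes. At an unadjusted p of 0.05 it was again 1 of 8, beside 6.13%.

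**Figure D1:**
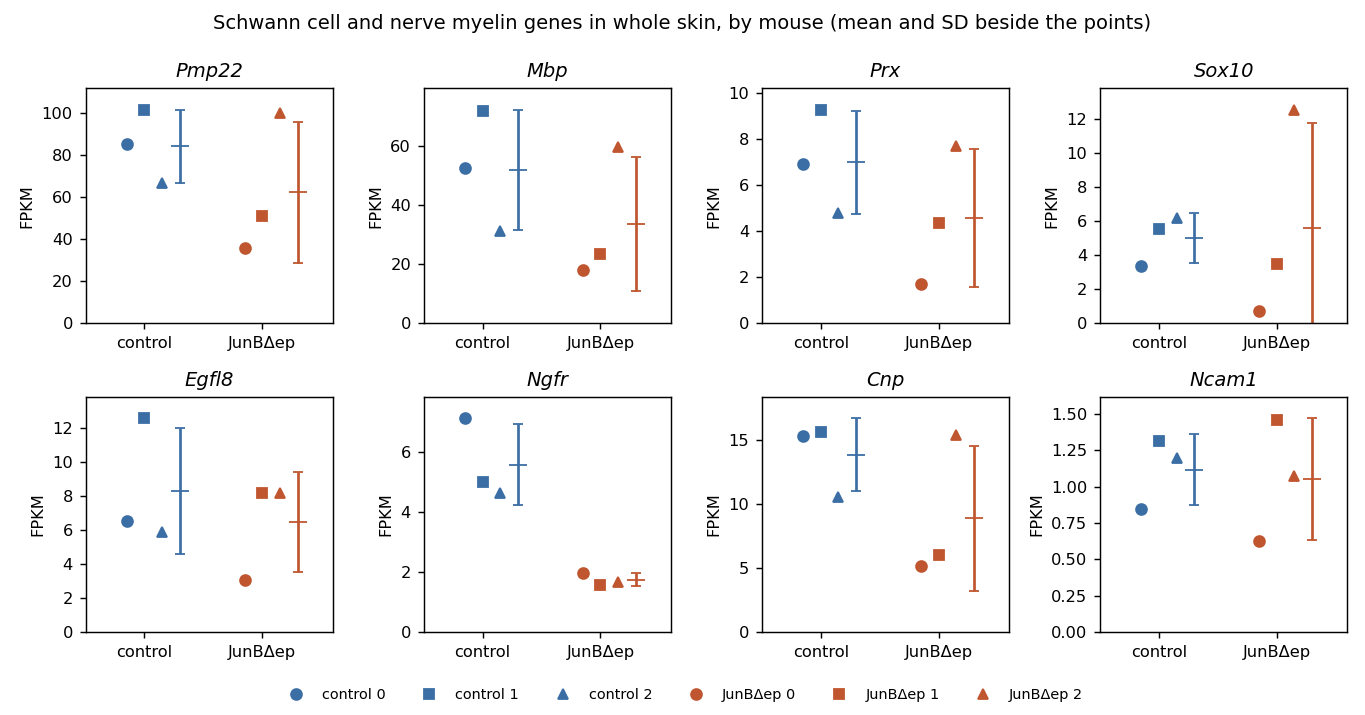
Level in FPKM (y axis, from 0) of each of the 8 members in the 3 control mice (blue) and the 3 JunBΔep mice (orange), with the mean and SD (n = 3) beside the points and the lower bar of Sox10 cut at 0. Ngfr sits at 1.58 to 1.98 FPKM in JunBΔep mice, below all controls at 4.61 to 7.11 FPKM, and JunBΔep replicate 2 is as high as the controls for Pmp22, Mbp, Prx and Cnp.

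Among the proteins of compact myelin, Pmp22 encodes a membrane protein of peripheral myelin whose dosage is tied to inherited neuropathies. Its level was 85.0, 101 and 66.5 FPKM in control replicates 0, 1 and 2 and 35.9, 51.1 and 99.99 FPKM in JunBΔep replicates 0, 1 and 2. JunBΔep replicates 0 and 1 lay below all controls, and replicate 2 lay beside the highest control, so the groups overlapped. The log2 fold change, JunBΔep minus control on the log2(FPKM + 0.5) scale as for all below, was -0.54 (95% interval -1.51 to 0.42, SE 0.40, limma adjusted p = 0.722). It was -0.21 without JunBΔep replicate 0 and -0.95 without JunBΔep replicate 2. The gene spans chromosome 11 from 62942484 to 62973049 on the plus strand of mm9.

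Mbp encodes myelin basic protein, which draws the inner faces of the myelin membrane together. Its gene also gives longer transcripts in other cells, including immune cells, and the FPKM value counts the gene as a whole. Mbp was at 52.8, 72.1 and 31.2 FPKM among control mice, compared with 18.04, 23.5 and 59.9 FPKM across JunBΔep replicates 0, 1 and 2. Again replicates 0 and 1 were below every control and replicate 2 was not. This gave a log2 fold change of -0.73 (95% interval -2.00 to 0.54, limma adjusted p = 0.722), which was -0.38 without JunBΔep replicate 0 and -1.24 without JunBΔep replicate 2.

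Cnp encodes a cyclic nucleotide phosphodiesterase of non-compact myelin. It was at 15.4, 15.7 and 10.6 FPKM among control mice, compared with 5.18, 6.04 and 15.4 FPKM across JunBΔep replicates 0, 1 and 2. The pattern over the mice was that of Pmp22 and Mbp, and the groups overlapped through replicate 2 alone. On the log2 scale the fold change was -0.75 (95% interval -1.80 to 0.29, limma adjusted p = 0.722), against -0.47 without JunBΔep replicate 0 and -1.22 without JunBΔep replicate 2. Cnp lies on chromosome 11 from 100436218 to 100453043 on the plus strand and overlaps Dnajc7 on the other strand. The kit kept strand, but the sources used here do not say whether counting used it, so reads of the pair may be mixed.

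Prx encodes periaxin, a scaffold protein that links the Schwann cell membrane to its surroundings and is needed for stable myelin. It was at 6.92, 9.29 and 4.80 FPKM among control mice, compared with 1.70, 4.35 and 7.71 FPKM across JunBΔep replicates 0, 1 and 2. Replicate 0 stood at 24.3% of the control mean, replicate 1 at 62.0% and replicate 2 at 110.1%. Its log2 fold change was -0.71 (95% interval -1.98 to 0.56, limma adjusted p = 0.722). Without JunBΔep replicate 0 it was -0.21, and without JunBΔep replicate 2 it was -1.15. Prx lies on chromosome 7 from 28284343 to 28305233 on the plus strand, with the antisense gene Gm15541 across it.

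These 4 genes put the 6 mice in exactly the same order, from control replicate 1 through JunBΔep replicate 2, control replicate 0, control replicate 2 and JunBΔep replicate 1 down to JunBΔep replicate 0. That order was shared by 1.39% of all genes tested. Of the 32 other Schwann cell and peripheral myelin genes it was shared by 6, among them Cldn19, Ncmap, Drp2 and Kcna1, named after their values were seen. Over the 6 mice, Pearson correlations of the log2(FPKM + 0.5) levels between Pmp22, Mbp, Prx and Cnp were 0.908 to 0.978 (6 pairs), and 0.880 to 0.990 over the 5 mice without JunBΔep replicate 0. The mice share genotype groups and libraries across genes, so these values are a description.

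**Figure D2:**
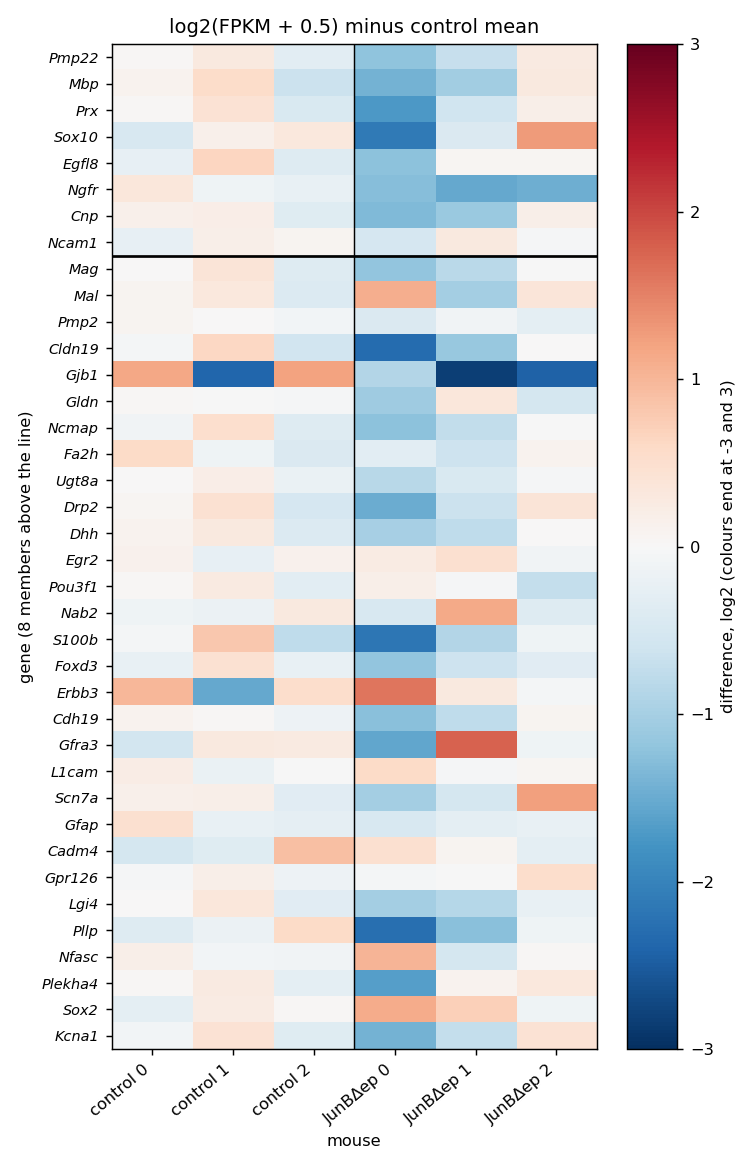
Difference of log2(FPKM + 0.5) from the control mean for the 8 members (above the line) and 30 of the 32 other Schwann cell and peripheral myelin genes (below), in the 6 mice (columns), with colours ending at -3 and 3. JunBΔep replicate 0 is the lowest mouse for 7 of the 8 members and 21 of the 32 other genes, and Ngfr is low in all 3 JunBΔep columns.

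Sox10 encodes the transcription factor that sets and keeps Schwann cell identity and is also expressed in melanocytes. It was at 3.39, 5.52 and 6.18 FPKM among control mice, compared with 0.733, 3.50 and 12.6 FPKM across JunBΔep replicates 0, 1 and 2. The JunBΔep mice thus held both the lowest and the highest value, 14.6%, 69.5% and 250% of the control mean. Their mean level, 5.60 ± 6.19 FPKM, was not below the control mean of 5.03 ± 1.46 FPKM (SD, n = 3), although the difference on the log2 scale was negative. The log2 fold change was -0.43 (95% interval -2.47 to 1.62, limma adjusted p = 0.867), and it was 0.42 without JunBΔep replicate 0 and -1.28 without JunBΔep replicate 2. The gene spans chromosome 15 from 78985343 to 78994920 on the minus strand.

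Melanocyte genes did not order the mice as Sox10 did. Dct, a melanin enzyme, was at 1.81, 7.02 and 25.4 FPKM among control mice, compared with 2.39, 42.9 and 4.26 FPKM across JunBΔep replicates 0, 1 and 2. Mlana, a melanosome protein, was at 2.75, 1.05 and 17.3 FPKM and at 0.921, 22.8 and 1.24 FPKM in the same mice. The 10 melanocyte genes summed to 11.4 to 88.7 FPKM per control mouse, against 10.7 to 127 FPKM per JunBΔep mouse. By limma 0 of 10 passed the test (0 at an unadjusted p of 0.05), and their median log2 fold change was 0.19 (0.56 without JunBΔep replicate 0). In JunBΔep replicate 2, where Sox10 was highest, they summed to 14.3 FPKM. Their part in the Sox10 level was not tested.

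Egfl8 encodes a secreted protein with EGF-like domains. It was at 6.52, 12.6 and 5.86 FPKM among control mice, compared with 3.06, 8.19 and 8.17 FPKM across JunBΔep replicates 0, 1 and 2. JunBΔep replicates 1 and 2 lay inside the control range and replicate 0 below it, with a log2 fold change of -0.37 (95% interval -1.50 to 0.76, limma adjusted p = 0.790). The fold change was 0.05 without JunBΔep replicate 0 and -0.59 without either of JunBΔep replicates 1 and 2. On chromosome 17, from 34750294 to 34752916 on the minus strand, Egfl8 overlaps Agpat1 on the other strand and Gm20460 on its own, so its level is uncertain.

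Ncam1 encodes an adhesion molecule of neurons, non-myelinating Schwann cells and muscle. It was the lowest of the 8, at 0.844, 1.31 and 1.19 FPKM among control mice, compared with 0.623, 1.46 and 1.07 FPKM across JunBΔep replicates 0, 1 and 2. The values of the groups lay across each other, and the log2 fold change was -0.08 (95% interval -0.76 to 0.59, limma adjusted p = 0.923). It was 0.13 without JunBΔep replicate 0, -0.27 without JunBΔep replicate 1 and 0.04 after quantile normalization, so it had no settled direction. The gene covers 296.8 kb on chromosome 9, from 49310257 to 49607027 on the minus strand, with Gm11149 and Gm17616 on the other strand.

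Ngfr encodes p75, the low-affinity receptor for neurotrophins. Besides immature and non-myelinating Schwann cells, other cells of the skin can express it. Ngfr was at 7.11, 4.98 and 4.61 FPKM in controls 0, 1 and 2, compared with 1.98, 1.58 and 1.67 FPKM across JunBΔep replicates 0, 1 and 2. All 3 JunBΔep mice were below all 3 controls, at 28.3% to 35.5% of the control mean, and their spread was small (1.74 ± 0.210 FPKM against 5.57 ± 1.35 FPKM, SD, n = 3). The group mean was 68.7% below that of the controls.

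The log2 fold change of Ngfr was -1.42 (95% interval -2.00 to -0.83, SE 0.24). Its limma p was 0.00100 before adjustment and 0.0639 after it over 17021 genes, which is above the threshold. An exact two-sided permutation test gave p = 0.1, the smallest that 3 mice against 3 allow. Without the library labelled JunBΔep replicate 0 the fold change was -1.49 (limma adjusted p = 0.0961). Ngfr was the 1 member of 8 with no overlap between groups in the direction of lower values, where 9.16% of all genes showed it, and 0 members showed it in the other direction (5.62% of all genes). The gene lies on chromosome 11 from 95430132 to 95449049 on the minus strand.

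**Figure D3:**
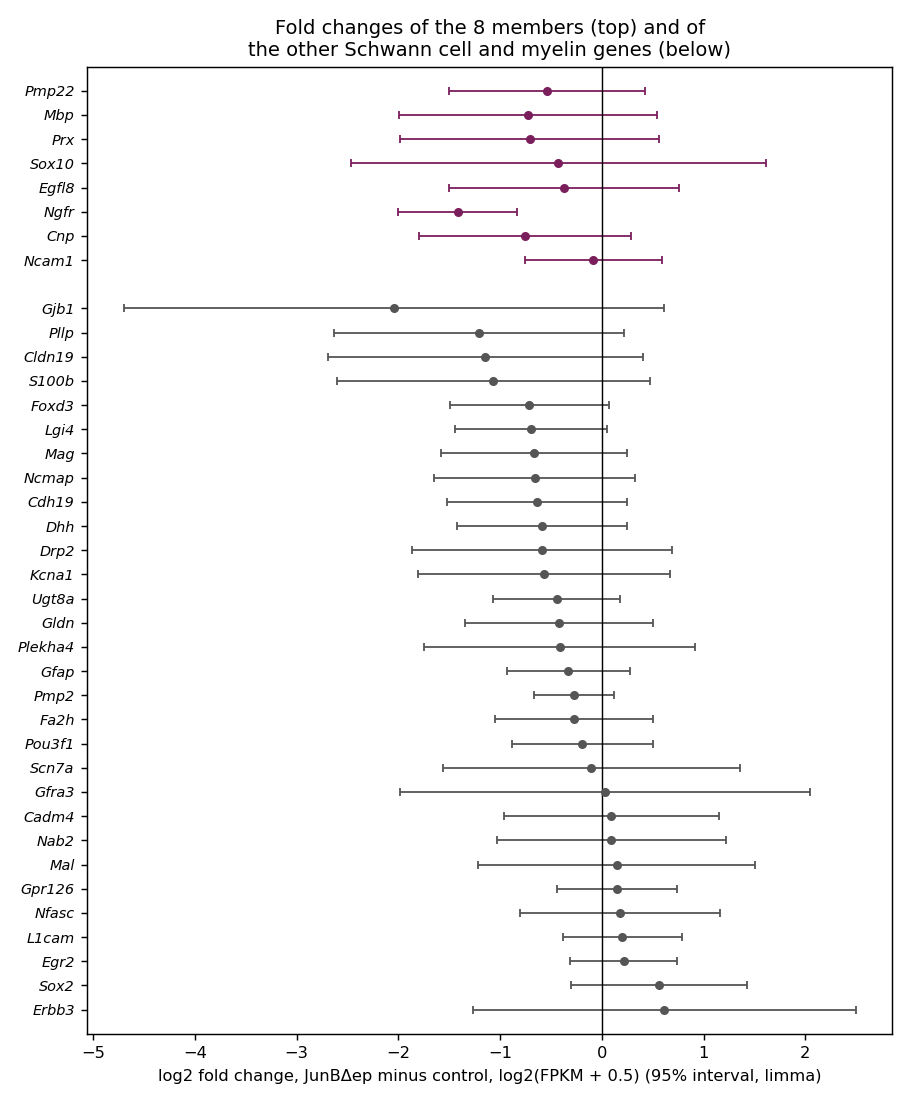
Log2 fold change, JunBΔep minus control on the log2(FPKM + 0.5) scale (x axis), with its 95% interval from limma, for the 8 members (top, purple) and 30 of the 32 other Schwann cell and peripheral myelin genes (below, grey, sorted). The interval of Ngfr, -2.00 to -0.83, is the only interval among the members that leaves out 0.

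The fold change was below 0 for 8 of 8 members, beside 46.6% of all genes tested. Their median log2 fold change was -0.63, beside 0.03 over all genes tested. Without JunBΔep replicate 0 it was -0.21, with 5 of 8 members below 0, and without JunBΔep replicate 2 it was -1.19, with 8 of 8 below 0. JunBΔep replicate 0 was the lowest of the 6 mice in 7 of the 8 members (all but Ngfr), as it was in 32% of all genes. The median difference of the members from the control mean on the log2 scale in the 3 controls was 0.03, 0.24 and -0.34, while JunBΔep replicate 0 stood at -1.29, replicate 1 at -0.64 and replicate 2 at 0.17.

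The sample titles fall into 2 number series, 1 with control replicates 0 and 1 and JunBΔep replicate 0, the other with control replicate 2 and JunBΔep replicates 1 and 2, and the labels do not say what the series are. Ngfr was lower in JunBΔep mice within both, at 1.98 FPKM against 7.11 and 4.98 FPKM in the first and at 1.58 and 1.67 FPKM against 4.61 FPKM in the other. Pmp22 was lower in the first, at 35.9 FPKM against 85.0 and 101 FPKM, but in the other its JunBΔep mice lay on both sides of the control, at 51.1 and 99.99 FPKM against 66.5 FPKM. Mbp, Prx, Cnp and Sox10 were split in the same way. With the series as a block, the log2 fold change of Ngfr was -1.32 (limma adjusted p = 0.164) and 8 of 8 members were below 0.

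Ngfr ran apart from the myelin genes over the mice. Its Pearson correlation with Pmp22, Mbp, Prx and Cnp was 0.442 to 0.592 over the 6 mice and 0.313 to 0.522 without JunBΔep replicate 0. With Sox10 it was 0.07 and with Ncam1 -0.05, both over 6 mice. Sox10 ran between, with 0.716 to 0.833 against Pmp22, Mbp, Prx and Cnp.

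Of the 32 other Schwann cell and peripheral myelin genes, 0 passed limma's test in either direction (0 at an unadjusted p of 0.05), 22 had a fold change below 0 and 10 above it, and their median log2 fold change was -0.42 (-0.23 without JunBΔep replicate 0). The lowest adjusted p of the list was 0.686 (Lgi4, a secreted protein that Schwann cells need to myelinate; log2 fold change -0.70). The lowest fold change was that of Gjb1, the gap junction protein connexin of myelin, with -2.05 (limma adjusted p = 0.722), though control replicate 1 at 0.644 FPKM was itself far below the other controls at 12.7 and 13.1 FPKM. The highest was that of Erbb3, the neuregulin receptor of Schwann cells, with 0.62 (limma adjusted p = 0.791). Pmp2 and Foxd3 did not overlap between groups and were lower in JunBΔep mice, 2 of 32 beside 9.16% of all genes, so the list did not exceed the share over all genes.

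Defining markers of Schwann cells were not alike over the mice. Egr2, which drives myelin genes and is expressed in hair follicles, was at 17.4, 13.4 and 17.4 FPKM among control mice, compared with 19.2, 22.7 and 14.8 FPKM across JunBΔep mice. S100b, a calcium-binding protein of Schwann cells, was at 3.48, 6.74 and 1.95 FPKM among control mice, compared with 0.417, 1.74 and 3.25 FPKM across JunBΔep replicates 0, 1 and 2. Mag was at 1.37, 1.94 and 0.924 FPKM and at 0.322, 0.565 and 1.35 FPKM. S100b and Mag were thus lower in JunBΔep replicates 0 and 1 than in any control, and Egr2 was not.

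Beside Ngfr, 14 genes of neurotrophins, GDNF ligands and their receptors were measured, of which 0 passed limma's test. At an unadjusted p of 0.05 there were 3 in both directions together, Sorcs2 and Gdnf among them. Of all 17021 genes tested 1287 stood there, 1044 lower and 243 higher. The median log2 fold change of the 14 genes was -0.07 (-0.06 without JunBΔep replicate 0). Sorcs2, a receptor that pairs with p75, had the highest fold change of the list.

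Sorcs2 was at 1.30, 1.35 and 2.67 FPKM among control mice, compared with 7.09, 4.33 and 5.36 FPKM across JunBΔep mice (log2 fold change 1.45, limma adjusted p = 0.157). Its groups did not overlap, in the direction opposite to Ngfr. Ntf3, neurotrophin 3, had the lowest fold change, -1.04 (limma adjusted p = 0.719), with 2.71, 5.76 and 2.60 FPKM among control mice, compared with 0.771, 1.03 and 3.17 FPKM across JunBΔep mice. Without overlap between groups, 1 of the 14 was lower in JunBΔep mice (9.16% of all genes) and 2 of the 14 were higher (5.62% of all genes). The lower one was Gdnf, with 3.18, 2.71 and 1.61 FPKM against 1.22, 0.844 and 1.54 FPKM (limma adjusted p = 0.588). Sorcs2, Ntf3 and Gdnf were named after their values were seen.

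**Figure D4:**
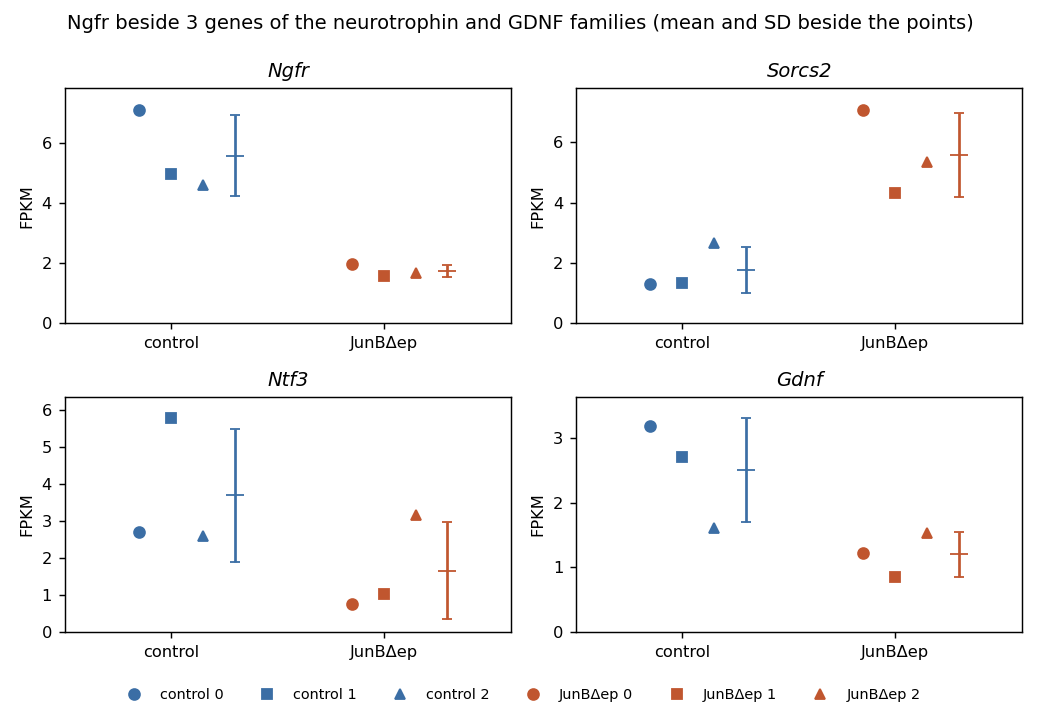
Level in FPKM (y axis, from 0) of Ngfr and of 3 genes of the neurotrophin and GDNF families in the 3 control mice (blue) and the 3 JunBΔep mice (orange), with the mean and SD (n = 3) beside the points. Ngfr lies lower and Sorcs2 higher in all 3 JunBΔep mice than in any control, at 1.58 to 1.98 FPKM and 4.33 to 7.09 FPKM.

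Of 20 neuron and axon genes, 9 were below the filter and 0 of the 11 tested passed limma's test. At an unadjusted p of 0.05 there were 2, Th and Mapt, both lower, beside 6.13% of all genes in that direction. The median log2 fold change of the list was -0.25 (-0.15 without JunBΔep replicate 0). Th, the rate-limiting enzyme of catecholamine synthesis, carried by sympathetic fibres, had the lowest adjusted p of the list. It was at 2.23, 2.51 and 4.24 FPKM among control mice, compared with 0.153, 0.447 and 0.734 FPKM across JunBΔep mice (log2 fold change -1.89, limma adjusted p = 0.0811). Mapt, the axonal microtubule protein tau, did not overlap between groups either (log2 fold change -1.12, limma adjusted p = 0.139), which makes 2 of 11 lower without overlap beside 9.16% of all genes. The highest fold change was that of Tubb3, a neuronal tubulin, with 2.48 (limma adjusted p = 0.722), at 1.06, 0.881 and 9.17 FPKM among control mice and 88.6, 27.6 and 0.929 FPKM across JunBΔep replicates 0, 1 and 2. Th, Mapt and Tubb3 were named after their values were seen, and which cells carried their RNA was not tested.

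Summed levels of marker genes of other tissues differed between the mice as well, and their values stand beside the members. The 15 skeletal muscle genes summed to 25090 to 34087 FPKM per control mouse but only 2385 to 5718 FPKM per JunBΔep mouse. All 15 were lower with no overlap (9.16% of all genes), and 13 of them passed the test (1.38% of all genes in this direction). The median log2 fold change of the 15 was -3.17 (-2.85 without JunBΔep replicate 0). The number called was 0 with either block (replicate number or title series) and 5 without the filter on low values. Leaving out 1 mouse left 0 to 13 of them called, 0 without any 1 control or JunBΔep replicate 1 and 3 without JunBΔep replicate 0. The 13 were Acta1, Ckm, Myh1, Myh2, Myl1, Mylpf, Tnnt3, Tnni2, Tnnc2, Atp2a1, Casq1, Ryr1 and Ttn, with limma adjusted p of 0.0179 for Ttn, the lowest, to 0.0426 for Ckm and Atp2a1. Acta1, skeletal actin, had a log2 fold change of -2.96 and Ckm, muscle creatine kinase, of -3.17.

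Of 15 genes of the neuromuscular junction and of regenerating muscle, 11 were tested and 3 passed as lower, beside 1.38% of all genes. The 3 were Chrne (log2 fold change -1.74, limma adjusted p = 0.0222), Rapsn (-2.19, 0.0269) and Myod1 (-2.60, 0.0204). In the whole list 0 genes passed without any 1 control or JunBΔep replicate 1, 1 without JunBΔep replicate 0, and 0 with either block. Chrne and Rapsn serve the acetylcholine receptor at the nerve contact of muscle, and Myod1 is a muscle transcription factor. Chrna1, another subunit of that receptor, was at 1.12, 0.831 and 1.07 FPKM among control mice, compared with 2.55, 0.196 and 0.260 FPKM across JunBΔep mice. Myog, the myogenin of differentiating muscle, was at 1.90, 2.85 and 1.61 FPKM and at 1.75, 0.259 and 0.629 FPKM. Over the 6 mice, Ngfr correlated with the median of the skeletal muscle genes at 0.913 and with that of the neuromuscular list at 0.879. Ngfr and the skeletal muscle genes did not overlap between groups, so the group difference alone can give a high value. Within each group Ngfr and the muscle median ordered the mice differently. Their log2 differences from the control mean were -1.27, -1.52 and -1.46 against -3.61, -3.47 and -2.24 in JunBΔep replicates 0, 1 and 2. In control replicates 0, 1 and 2 they were 0.35, -0.12 and -0.22 against -0.09, 0.20 and -0.12. Pmp22, Mbp, Prx and Cnp correlated with the muscle median at 0.711, 0.702, 0.686 and 0.791, and with the neuromuscular median at 0.0912 to 0.355. The part of the muscle genes in the members' levels was not tested.

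Adipocyte genes were, like the structural myelin genes, lowest in JunBΔep replicate 0. The 10 genes summed to 3125, 6072 and 2004 FPKM in controls 0, 1 and 2, compared with 85.4, 3058 and 15397 FPKM across JunBΔep replicates 0, 1 and 2. By limma 0 of 10 passed the test (0 at an unadjusted p of 0.05), and all 10 were lowest in JunBΔep replicate 0. Their median log2 fold change was -1.80 with that library and 0.65 without it. Over the 6 mice, Pmp22, Mbp, Prx and Cnp correlated with their median at 0.886, 0.793, 0.940 and 0.783. For Sox10, Egfl8 and Ncam1 the values were 0.915, 0.861 and 0.700, and for Ngfr 0.240. Fibroblast genes summed to 1226 to 2783 FPKM per control mouse, against 802 to 1789 FPKM per JunBΔep mouse, endothelial genes to 91.0 to 159.7 FPKM and 59.2 to 228 FPKM, and keratinocyte genes to 9062 to 15016 FPKM and 9255 to 14496 FPKM, each list with 0 of 10 past limma's test and 1, 0 and 1 gene at an unadjusted p of 0.05. Ngfr correlated with the median of the fibroblast genes at 0.699, and Pmp22, Mbp, Prx and Cnp at -0.03, 0.04, -0.17 and 0.20. With the endothelial median Ngfr correlated at 0.198, and Pmp22, Mbp, Prx and Cnp at 0.724, 0.765, 0.552 and 0.785. The part of these genes in the members' levels was not tested.

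**Figure D5:**
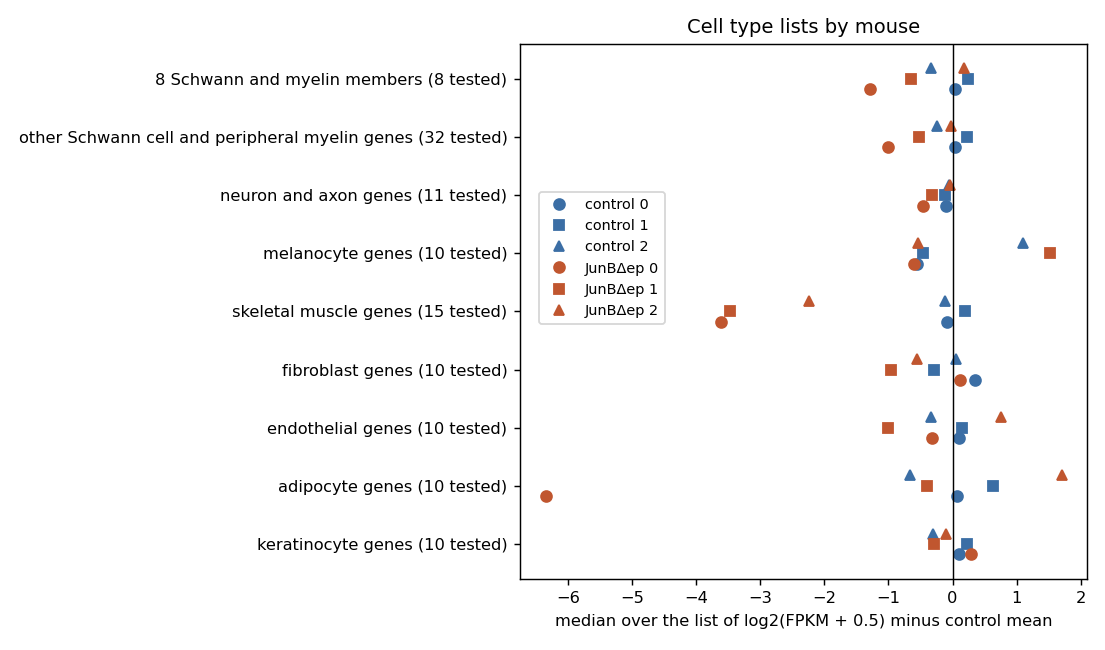
Median over each list of the difference of log2(FPKM + 0.5) from the control mean (x axis) in the 6 mice (control blue, JunBΔep orange), for the 8 members and 8 lists of cell type genes. Skeletal muscle genes are at -3.61, -3.47 and -2.24 in the JunBΔep mice, while the members and the adipocyte genes are lowest in JunBΔep replicate 0, at -1.29 and -6.35.

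For each member, the genes with the most similar levels over the 6 mice were taken from 13734 genes that averaged 1 FPKM or more, by Pearson correlation of log2(FPKM + 0.5). For Ngfr they were Cd248 (0.990), Emx2 (0.983) and Isl1 (0.978). Cd248, a surface protein of fibroblasts and pericytes, was at 41.2, 30.0 and 33.7 FPKM among control mice, compared with 19.04, 17.2 and 16.9 FPKM across JunBΔep mice. For Pmp22 they were Cxx1c, Ei24 and Ldb2 (0.996 to 0.997), for Mbp Cytl1, Trim12c and Laptm4b (0.995 to 0.998), for Prx Agpat4, Gsn and 9330102E08Rik (each 0.998 or above), and for Cnp Mrvi1, Pet112 and Susd2 (0.990 to 0.997). None of these was on the list of Schwann cell genes.

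For Sox10 the closest were Pald1, Dixdc1 and Irx1 (0.988 to 0.991), for Egfl8 Ilkap, Haghl and 1110012L19Rik (0.995 to 0.996) and for Ncam1 Fam122a, Gm17066 and Creb3l4 (0.989 to 0.993). With only 6 mice such values were common. At a correlation of 0.95 or above stood 343 genes for Pmp22, 424 for Prx, 202 for Cnp, 170 for Mbp, 161 for Egfl8, 102 for Ngfr, 69 for Sox10 and 41 for Ncam1.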

How the data were processed

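Poly(A) RNA of whole skin from 3 JunBΔep and 3 control mice was sequenced in strand-preserving libraries. Per the submitters' processing notes and the paper's methods, reads were checked with FastQC and aligned to mm9 with TopHat 2.0.10, Bowtie 1.0.0 and SAMtools 0.1.19. The authors deposited FPKM values per gene and mouse. Cufflinks is named in the submitters' notes without a role, and the sources used here do not state any further scaling between libraries. The number of reads per mouse is unknown, so no counting interval is given. The authors tested read counts, which were not analysed here.

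FPKM values were used as deposited and put on the log2(FPKM + 0.5) scale, on which limma 3.58.1 was fitted (R 4.3.3, intensity trend, two-sided, no block) over the 17021 genes averaging 0.1 FPKM or more. P-values were adjusted by Benjamini-Hochberg over all genes tested, with a threshold of 0.05. The log2(FPKM + 0.5) scale understates changes of low genes. The 8 members and all gene lists were chosen with earlier results of these data known, and no test was made over a list. The genes named were the members, Junb, genes of each list past the threshold, defining markers of each cell type, the extremes of the Schwann cell list and, per member, the 3 genes of highest correlation. Other genes named were chosen after their values were seen. Some genes of the lists are counted but not reported here one by one. Genes were placed on mm9 by GENCODE vM1. Promoters are from RefSeq (GRCm38.p6), matched to mm9 by sequence. On simulated data for the comparison of 3 JunBΔep against 3 control mice (17021 genes, 200 changed, 5 simulations per size), 0% of genes changed by a log2 of 1 were recovered, 56.4% at 2 and 75.7% at 3. Python 3.11.15 with pandas 2.3.3 and matplotlib 3.10.9 served for summaries and plots.

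As alternatives, the pseudocount was set to 0.1 or 1, the filter was dropped or raised to 1 FPKM, and the fit was repeated with rescaling by median ratios or to a sum of 1000000, quantile normalization, no trend, robust variances, a replicate block, a block on the title series (the numbering of the sample titles), an adjusted p of 0.1, and each mouse left out.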

Additional observations from a re-analysis of the deposited data

How the results depend on the processing

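The log2 fold change of Ngfr stayed below 0 in all 18 alternatives (-1.60 to -1.24), with limma adjusted p from 0.0430 without the intensity trend, where it was the 1 member called, to 0.316 without control replicate 0. At an adjusted p of 0.1 the members called were again 1 (Ngfr) and the neuron and axon genes called 1 (Th). Pmp22, Mbp, Prx and Cnp kept a fold change below 0 in all 18 and passed the threshold in 0. The number of all genes called was 235, and 0 with the replicate block and with the block on title series (also 0 of the skeletal muscle genes), where the adjusted p of Ngfr was 0.289 and 0.164. The replicate numbers did not pair the mice (correlations of same-numbered deviations 0.120, -0.228 and -0.426). Leaving out 1 mouse gave 0 to 254 genes called, namely 0 without any 1 control or JunBΔep replicate 1, 135 without JunBΔep replicate 0 and 254 without JunBΔep replicate 2.

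The members' median log2 fold change ran from -1.19 without JunBΔep replicate 2 to -0.21 without JunBΔep replicate 0. The members called and those called in the Schwann cell, neurotrophin and neuron lists stayed at 0 in each of these 6 fits. Leaving out 1 mouse turned the direction of Sox10 (-1.28 to 0.42), Egfl8 (-0.59 to 0.055), Ncam1 (-0.27 to 0.13, and 0.0039 without control replicate 1) and Junb (-0.84 to 0.25). Ncam1 was at 0.044 after quantile normalization and Junb at 0.14 with the block on title series. Without 1 mouse, 2 mice stand for a group in the fit. The depth of the libraries is unknown, so whether it limits the calls or the low levels was not tested. Genes changed by a log2 of 1 were not recovered in simulated data of this size.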
